A study of Homo sapiens with 18 samples.

Results

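The comparison set HepG2 cells carrying thyroid hormone receptor TRα1 (TRa1 in the labels) against HepG2 cells carrying the empty plasmid, both without hormone. HepG2 is an established human hepatocellular carcinoma line. The members were 6 of the 18 arrays of the series, chosen by their titles: 3 of the TRα1 pool on vehicle and 3 of the empty plasmid pool on vehicle, called the control pool here. Both pools came from clones selected in G418, a drug that kills cells without the cotransfected resistance gene, and screened for the introduced construct. The TRα1 pool combined 6 clones and the control pool 11. All 6 cultures received ethanol, the carrier of the hormone, for 6 h in DMEM with 10% hormone-stripped fetal bovine serum. Other arrays used here came from the same pools on 100 nM T3 (triiodothyronine, the active hormone) for 6 h, and from a pool of 12 clones carrying TRβ1 on vehicle or T3, with 3 arrays in each group. There was 1 pool per construct, so the receptor, its amount and the choice of clones cannot be told apart in any difference given here. The 3 repeats of a group are separate experiments on the same pool. The p-values measure the spread left over all 18 arrays after shifts shared by arrays of the same replicate number are removed. They do not measure a spread between pools or clones.

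Thyroid hormone receptors are nuclear receptors that sit on DNA with or without hormone, mostly as partners of the retinoid X receptors (RXR). Without T3 they recruit corepressors and can hold target genes low. T3 exchanges the corepressors for coactivators. Liver is a classical target organ of the hormone, through genes of lipid, carbohydrate and bile acid metabolism.

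Levels are the deposited log2 values after RMA, so a difference of 1 is a doubling. A feature is 1 transcript cluster of the array, and 20546 features with a gene symbol were tested. Differences are TRα1 minus control with the standard error (SE) of a limma fit over all 18 arrays that holds the replicate number constant, and "called" means an adjusted p under 0.05 over all these features. Replicate numbers dominated the data: the first principal component held 49.2% of the variance and placed all arrays numbered 1 between -39.2 and -32.3, with the arrays numbered 2 and 3 above 0. Hepatocyte secreted proteins averaged 9.76 to 9.99 by array in the TRα1 pool and 9.69 to 9.90 in control, against 4.24 to 4.54 and 4.36 to 4.50 for 10 endothelial markers, all 10 of which lay below the median level of the tested features. Fibroblast and neural marker lists had no called member, and the leukocyte list had 1, lysozyme (LYZ), lower by a difference of -0.37 ± 0.08. The cholangiocyte list had 1 of 8 called, SPP1, higher.

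On the 3 arrays of the TRα1 pool THRA, which encodes TRα (feature 8007008), had levels of 7.39, 7.55 and 7.55, against 6.95, 7.04 and 7.19 in control. All 3 values of the TRα1 pool lay above all 3 of control. The difference of 0.44 ± 0.13 was not called (adjusted p = 0.128, limma). On the T3 arrays it was 0.95 with an adjusted p of 0.00089, and the change of 0.51 ± 0.19 between both was not called. THRB, the gene for TRβ, differed by 0.09 ± 0.11 with overlapping values. The probes may or may not read the transcript of the plasmid, and how much receptor was added is not given by these values. Among the 5 measured receptors and RXR partners none was called. The smallest p beside THRA was that of RXRB, at -0.32 ± 0.13 (adjusted p = 0.26, limma). The 2 other RXRB features were at -0.27 and 0.02 and were not called either.

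Of the 20546 features, 425 were called (2.07%), 284 of them higher in the TRα1 pool (1.38%) and 141 lower (0.686%). These shares are the background for each list count below. Many lists lay above them, and the lists were chosen with earlier results of these data known. The 3 and 3 values did not overlap for 306 of the 425, where 1576 features (7.67%) had no overlap among all tested. In every called feature the 3 same-numbered pairs ran in 1 direction. Differences ranged from -1.87 to 3.94, with 32 features higher and 7 lower by at least 1 log2 unit. The count rested on the replicate number: without it as a block 63 features passed (0.307%), all of them among the 425. It was 203 without TRα1 replicate 2, 219 without replicate 3, 204 and 231 without the control arrays of those numbers, and 200, 86 and 63 when all arrays numbered 1, 2 or 3 were left out. Below, overlap between the pools is not stated for every gene. The values of ITGA2, EPHX1, CYP3A5, APOM, ONECUT2, LSS, ELOVL6, SLC25A20, PPP1R3C, PC, HK2, BAAT, PIK3R1 and CCL20 overlapped. None of these genes was called without the replicate block.

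The highest differences were in SPINK1, the histone gene H2BC12 and VCAN. SPINK1, a secreted inhibitor of trypsin (feature 8114964), stood at 10.19, 7.21 and 7.22 in the TRα1 pool and at 5.38, 3.50 and 3.90 in control. Replicate 1 was high in both pools, and the groups did not overlap. The difference was 3.94 ± 0.36 (adjusted p = 2.5e-05), a 15.4-fold change, but the adjusted p was 0.27 without the replicate block, which leaves that shared shift in the error. VCAN, the matrix proteoglycan versican (feature 8106743), stood at 7.54, 7.70 and 7.77 against 5.28, 5.16 and 5.17. Both groups were tight and far apart, with a difference of 2.47 ± 0.16 (adjusted p = 6.9e-07), or 5.53-fold.

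**Figure D1:**
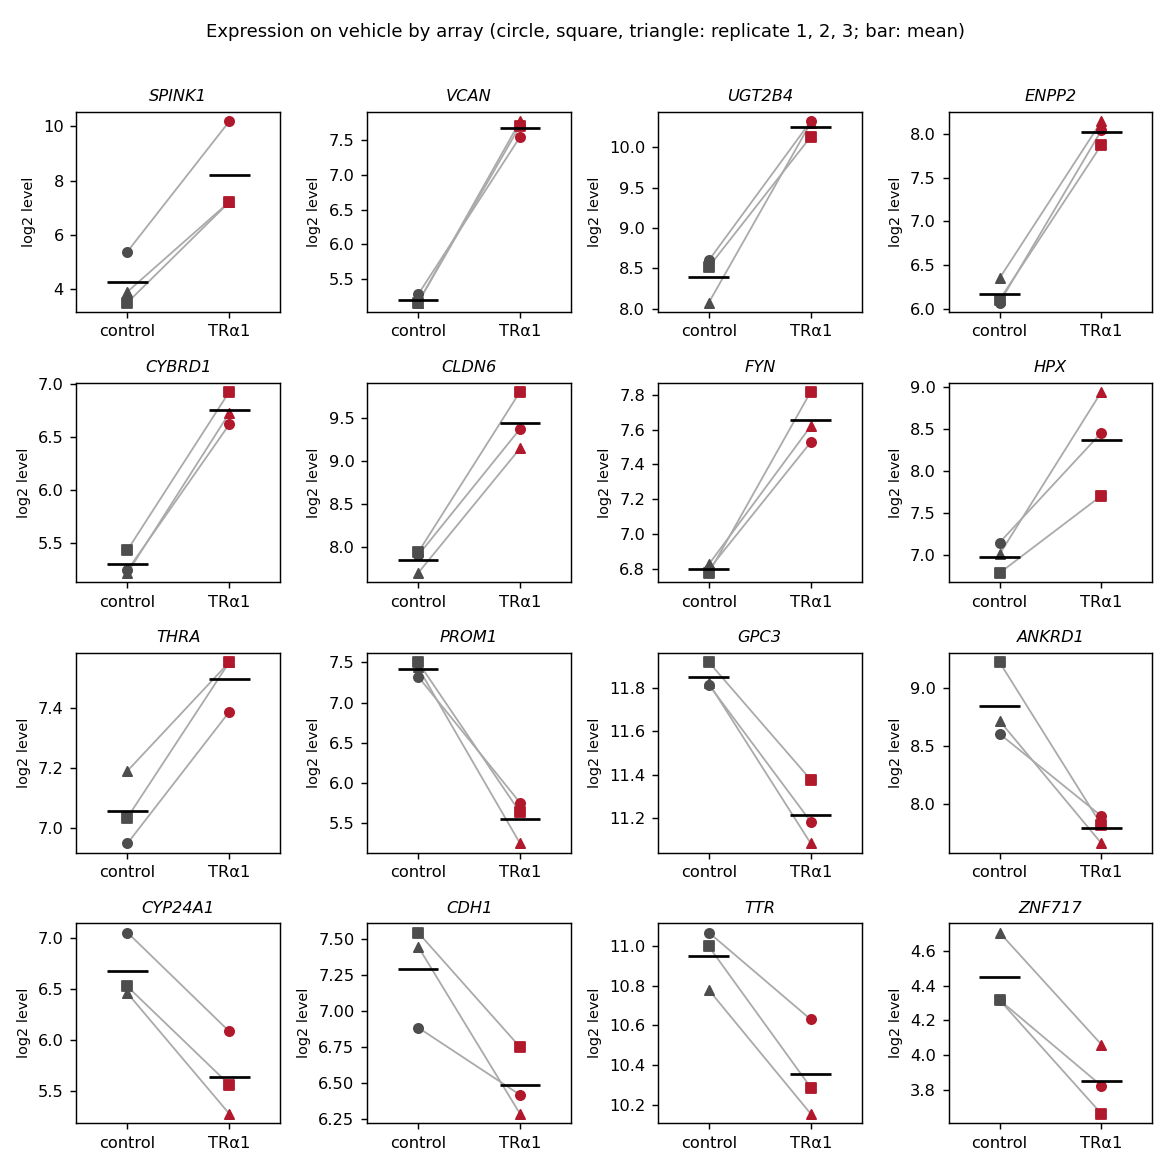
Log2 level on vehicle of 16 genes in the control pool (grey) and the TRα1 pool (red), 1 panel per gene with its own axis. Each point is 1 array, lines join arrays with the same replicate number and bars are means of 3. In each of the 16 genes the values of both pools do not overlap, and SPINK1 shows replicate 1 high in both.

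ENPP2, autotaxin, the secreted enzyme that makes lysophosphatidic acid, stood at 8.04, 7.87 and 8.14 against 6.08, 6.11 and 6.35, a difference of 1.84 ± 0.10 (adjusted p = 8.5e-08). Other genes of secreted or matrix products were SPARC at 1.25 ± 0.17, nephronectin (NPNT), an integrin ligand of basement membranes, at 1.16 ± 0.18, and OLFML1, an olfactomedin-like protein, at 1.74 ± 0.12. The list of matrix and adhesion genes, 54 measured, had 6 called higher and 3 lower (16.7%, against 2.07% of all features), with a median of 0.06. Its higher members further included COL2A1, a fibrillar collagen (0.95 ± 0.20), and SPP1, osteopontin (0.94 ± 0.18), whose values overlapped between the pools. Its lower members were the integrin subunits ITGA2 (-0.52 ± 0.11) and ITGAV, and the membrane metalloproteinase MMP14 (-0.52 ± 0.10). PCOLCE2, an enhancer of procollagen processing outside that list, was lower at -0.91 ± 0.10.

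Among enzymes, UGT2B4, which glucuronidates bile acids and steroids, stood at 10.32, 10.13 and 10.30 against 8.60, 8.52 and 8.08. Its lowest TRα1 value was above its highest control value by more than a log2 unit, and the difference was 1.86 ± 0.15 (adjusted p = 4.7e-06). SULT1C2, a cytosolic sulfotransferase, stood at 7.14, 6.60 and 6.62 against 5.50, 5.29 and 4.61, a difference of 1.66 ± 0.12. These and the epoxide hydrolase EPHX1 (0.52 ± 0.10) and CYP3A5 (0.51 ± 0.10) were the 4 higher of 42 measured genes of xenobiotic and steroid metabolism. The 1 lower was CYP24A1, which degrades active vitamin D. ALDH8A1, an aldehyde dehydrogenase, was higher at 1.20 ± 0.17, and BHMT, which remethylates homocysteine, at 0.98 ± 0.14. Guanine deaminase (GDA) at -0.97 ± 0.14, the prostaglandin reductase PTGR1 at -0.90 ± 0.11 and DPYD, which degrades pyrimidines, at -0.75 ± 0.12 were lower.

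Iron and heme genes had 4 higher and 0 lower members among 16 measured, 25.0% against 1.38% of all features higher. Their median was 0.03. CYBRD1, a ferric reductase, stood at 6.62, 6.93 and 6.72 against 5.24, 5.43 and 5.21, a difference of 1.46 ± 0.14 (adjusted p = 2.6e-05). Hemopexin (HPX), the plasma heme carrier, stood at 8.46, 7.71 and 8.95 against 7.14, 6.78 and 7.005. HPX replicate 2 was the lowest of its group and still above all control values, and the difference was 1.39 ± 0.18. Heme oxygenase HMOX1 differed by 0.86 ± 0.08, and haptoglobin (HP), the carrier of free hemoglobin, by 0.79 ± 0.18 with overlapping values. Without the replicate block 1 of these 4, CYBRD1, remained called. Hemopexin lies beside SMPD1 and APBB1 on chromosome 11, and these 3 neighbours were all called higher.

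The promoters of SULT1C2, HPX and FYN, a Src family kinase also called higher, are shown because the binding half-site of thyroid hormone receptors is the hexamer AGGTCA. They are RefSeq windows of the build GRCh38.p14, from 250 bases before to 50 after the gene's start, 5′ to 3′ on the gene's strand, with the half-site in capitals. In SULT1C2 it starts at -59, and in HPX it lies on the other strand, so that the capitals read TGACCT, and starts at -134. The FYN window holds none.
SULT1C2, chr2:108288645-108288944, plus strand: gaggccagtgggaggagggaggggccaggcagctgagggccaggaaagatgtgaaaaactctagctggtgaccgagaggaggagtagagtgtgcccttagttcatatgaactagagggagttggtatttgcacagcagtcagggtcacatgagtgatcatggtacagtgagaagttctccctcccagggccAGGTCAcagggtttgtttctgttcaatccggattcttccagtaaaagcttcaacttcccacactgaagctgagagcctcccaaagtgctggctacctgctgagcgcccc
HPX, chr11:6440938-6441237, minus strand: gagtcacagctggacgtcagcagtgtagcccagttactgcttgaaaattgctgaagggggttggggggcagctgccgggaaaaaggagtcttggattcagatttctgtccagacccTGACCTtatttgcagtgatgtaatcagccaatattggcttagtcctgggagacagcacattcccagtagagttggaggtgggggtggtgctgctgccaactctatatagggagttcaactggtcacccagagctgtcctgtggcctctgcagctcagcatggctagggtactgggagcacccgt
FYN, chr6:111873403-111873702, minus strand: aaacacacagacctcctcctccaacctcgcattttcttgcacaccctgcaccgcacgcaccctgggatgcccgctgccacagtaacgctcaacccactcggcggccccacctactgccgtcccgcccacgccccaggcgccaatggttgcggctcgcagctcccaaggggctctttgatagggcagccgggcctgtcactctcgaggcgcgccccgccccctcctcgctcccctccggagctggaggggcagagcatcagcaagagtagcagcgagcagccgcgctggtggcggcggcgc
On either strand, the hexamer was in 24 of 197 promoters of genes called higher (12.2%) and in 10 of 107 of genes called lower (9.35%). It was in 11.1% of the 14232 tested genes matched to a promoter and in 13.9% of all 27305 windows. The shares of called genes lay near these backgrounds, and a match of letters is a description of the window, not a binding site. An exact direct repeat of the hexamer with the spacing called DR4 was in 0 of the 197 and 0 of the 107 promoters. It was in 1 of the 14232, too few for a comparison.

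Cell junction and surface genes moved in both directions. CLDN6, a claudin of embryonic epithelia, stood at 9.37, 9.81 and 9.15 against 7.90, 7.93 and 7.69, a difference of 1.60 ± 0.20 (adjusted p = 0.00036). DSC3, a desmosomal cadherin, was higher at 1.15 ± 0.17. E-cadherin (CDH1) stood at 6.42, 6.75 and 6.29 against 6.88, 7.55 and 7.45, lower without overlap at -0.81 ± 0.14 (adjusted p = 0.0052). With CLDN2, at -0.36 ± 0.09, CDH1 made up the 2 lower and 0 higher of 25 epithelial and mesenchymal state genes, whose median was -0.03. No mesenchymal member of that list was called. CDH1 had an adjusted p of 0.71 without the replicate block.

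The lowest difference was in PROM1, prominin, a surface protein of progenitor cells (feature 8099476). It stood at 5.75, 5.63 and 5.25 against 7.32, 7.50 and 7.44. All TRα1 values lay more than 1 log2 unit below all control values, and the difference was -1.87 ± 0.16 (adjusted p = 1.2e-05), or 3.67-fold lower. GPC3, glypican, an oncofetal proteoglycan of liver tumours, stood at 11.18, 11.38 and 11.08 against 11.81, 11.92 and 11.82, a difference of -0.64 ± 0.09. Both belonged to the hepatoblast and progenitor list, which had 1 member higher (SPINK1) and 2 lower of 16, with a median of -0.09. BICC1, an RNA-binding protein, was lower by -1.48 ± 0.21 and DOCK9, an activator of the GTPase Cdc42, by -1.45 ± 0.17. ANKRD1, a known target of YAP and TEAD factors, stood at 7.89, 7.82 and 7.66 against 8.61, 9.23 and 8.72, without overlap, a difference of -1.06 ± 0.13 (adjusted p = 0.0005). AJUBA (-0.31 ± 0.07) was the other lower member of the 18 YAP and TEAD targets, of which 0 were higher.

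Several of the remaining large differences were in genes of signalling and the cytoskeleton. CHN1, which inactivates the GTPase Rac, stood at 7.51, 7.32 and 7.26 against 5.15, 5.15 and 5.87, a difference of 1.97 ± 0.15 (adjusted p = 4.1e-06). The protein kinase C isoform PRKCH differed by 1.26 ± 0.10, the microtubule-binding SLAIN1 by 1.43 ± 0.15, the sulfatase ARSI by 1.44 ± 0.17 and CPED1 by 1.14 ± 0.08. All 5 were called without the replicate block too. Lower were CAP2, an actin-binding protein (-0.88 ± 0.15), the lactate receptor HCAR1 (-0.64 ± 0.12), the acyltransferase GPAT3 (-0.67 ± 0.15) and the RNA-binding protein RBM24 (-0.64 ± 0.12). The zinc finger gene ZNF558 (-0.69 ± 0.12), the small nucleolar RNA SNORA14B (-0.72 ± 0.16) and the pseudogene SEPTIN7P13 (-0.68 ± 0.15) were also among the 20 lowest genes without overlap. HCAR1, GPAT3, RBM24 and these 3 were not called on T3, where their differences were -0.43, -0.32, -0.48, -0.35, -0.25 and -0.28 in that order.

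Genes of the Wnt pathway had 7 higher and 0 lower of 31 measured, 22.6% against 1.38% of all features, with a median of 0.07. They were mostly targets and feedback inhibitors of the pathway: the membrane inhibitor APCDD1 (0.97 ± 0.10), BAMBI (0.89 ± 0.10), the ligand WNT11 (0.62 ± 0.10), TNFRSF19 (0.45 ± 0.08), AXIN2 (0.45 ± 0.10), the ubiquitin ligase ZNRF3 (0.37) and glutamine synthetase GLUL (0.35 ± 0.07). APCDD1 was the clearest, at 6.55, 6.80 and 6.80 against 5.66, 5.89 and 5.68, and it was the 1 member called without the replicate block. TNFRSF19 values overlapped between the pools, since its replicate 1 was low in both. On the T3 arrays 5 members of the list were higher and 1 lower.

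Liver products did not move as a block. Of 25 hepatocyte secreted proteins 2 were higher, HPX and ITIH4 (0.62 ± 0.08), and 2 lower, transthyretin and APOM (-0.55 ± 0.09). The values of APOM overlapped between the pools. The coagulation list had 3 higher, CPB2 (0.89 ± 0.12), SERPINF2 (0.49 ± 0.09) and SERPIND1 (0.36 ± 0.07), and 1 lower, the tissue factor pathway inhibitor TFPI (-0.50 ± 0.11), of 25. The complement and acute phase list had 3 higher, C1S (0.88 ± 0.09), HP and C6 (0.58 ± 0.12), and 1 lower, C5 (-0.43 ± 0.09), of 25. Among 17 liver-enriched transcription factors 0 were higher and 2 lower, NR0B2, the bile acid-induced repressor SHP (-0.63 ± 0.10), and ONECUT2 (-0.33 ± 0.08). SLC22A7, a hepatic organic anion transporter outside these lists, was higher at 1.13 ± 0.11, and SERPING1, the C1 inhibitor, at 1.12 ± 0.12.

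Called members of the lipid and glucose lists differed by less than 1 log2 unit. Cholesterol and fatty acid synthesis had 3 higher and 0 lower of 25: LSS (0.49 ± 0.12), the elongase ELOVL6 (0.47 ± 0.09) and mevalonate kinase MVK (0.43 ± 0.09). Its median was 0.08, and 20 of 25 estimates lay above 0. Fatty acid oxidation had 2 of 19 higher, ACSL1 (0.41 ± 0.09) and SLC25A20 (0.35 ± 0.08). Glucose and glycogen genes had 3 of 24 higher, the transporter SLC2A2 (0.68 ± 0.13), PPP1R3C (0.38 ± 0.09) and pyruvate carboxylase PC (0.32 ± 0.08), and 1 lower, hexokinase HK2 (-0.49 ± 0.12). None of the called members of these 3 lists was called without the replicate block. For bile acids, BAAT, which conjugates them, was higher (0.55 ± 0.11) and NR0B2 lower among 21.

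**Figure D2:**
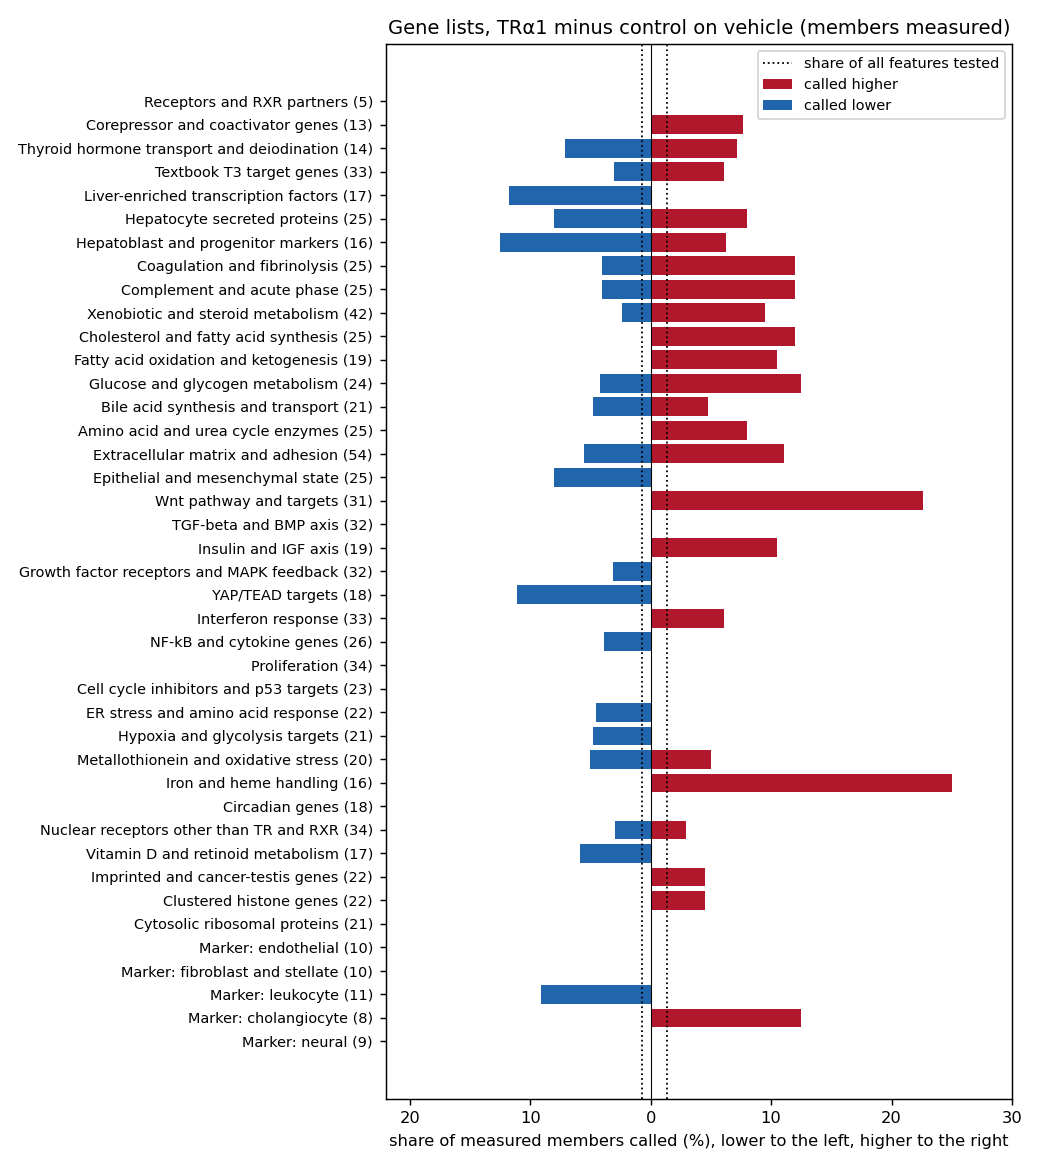
Share of the measured members of each of 41 gene lists that was called higher (red, to the right) or lower (blue, to the left) in the TRα1 pool on vehicle, in percent, with the number measured in brackets. Dotted lines mark the shares of all 20546 features, 1.38% higher and 0.686% lower. Iron and heme handling (4 of 16) and the Wnt pathway (7 of 31) have the longest bars.

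Growth, stress and clock genes gave few or no calls in limma. Proliferation had 0 of 34 called, with a median of 0.01 and the smallest p at CDCA7 (0.34 ± 0.10, adjusted p = 0.126). The cell cycle inhibitor and p53 list had 0 of 23, the TGF-beta and BMP list 0 of 32, the circadian list 0 of 18 and cytosolic ribosomal proteins 0 of 21. The insulin and IGF list had 2 of 19 higher, IGFBP2 (0.72 ± 0.16) and PIK3R1 (0.34 ± 0.08). Interferon response genes had 2 of 33 higher (6.06%, against 1.38% of all features), MX2 (0.66 ± 0.07) and MX1 (0.51 ± 0.11), which are neighbours on chromosome 21. Single members were lower in 4 further lists, where 0.686% of all features were lower. They were the MAPK feedback gene SPRY4 (-0.53 ± 0.10, 1 of 32) and the chemokine CCL20 (-0.53 ± 0.12, 1 of 26). The others were the lipoprotein receptor VLDLR (-0.59 ± 0.10, 1 of 22) and the cystine transporter SLC7A11 (-0.65 ± 0.09, 1 of 20). The list of SLC7A11 also had 1 higher member, HMOX1 at 0.86 ± 0.08. Of the clustered histone genes, H2BC12 was called at 2.72 ± 0.32, 1 of 22 in its list. That list had a median of -0.09, with 4 of 22 estimates above 0. Outside the list the histone gene H2AC12 was called higher at 1.81 ± 0.20, and H2BC14 and H3C7 were called lower. H2BC12 and H2AC12 have near-identical copies, so the probes may not tell which gene gave the signal.

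The series asks about targets of the receptors, so a list of T3 target genes was examined. It was chosen with earlier results of these data known, so its count is not separate from these data. Its members FYN and CYP24A1 were also raised by T3 in the TRβ1 pool of this series (1.40 and 1.83). Of 33 measured members 2 were higher and 1 lower, 9.09% against 2.07% of all features. Their median was -0.02, with 13 estimates above 0. All tested features had quartiles of -0.10 and 0.10. FYN (feature 8128956) stood at 7.53, 7.82 and 7.62 in the TRα1 pool and at 6.79, 6.77 and 6.82 in control. It was higher on every array without overlap, at 0.86 ± 0.10 (adjusted p = 0.00033). SERPINA7, thyroxine-binding globulin, stood at 10.57, 9.79 and 9.82 against 10.01, 9.07 and 9.04, higher in 3 of 3 same-numbered pairs although the groups overlapped, at 0.68 ± 0.07 (adjusted p = 0.00012 with and 1 without the replicate block). Transthyretin (TTR), another carrier of thyroid hormone made in liver, stood at 10.63, 10.29 and 10.16 against 11.07, 10.996 and 10.78. It was lower without overlap, at -0.59 ± 0.08 (adjusted p = 0.0005). The transport and deiodination list of 14 had no other called member.

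The lower member of the T3 target list was CYP24A1 (feature 8067140), at 6.08, 5.56 and 5.28 against 7.05, 6.52 and 6.46. All TRα1 values lay below all control values, with a difference of -1.04 ± 0.15 (adjusted p = 0.0012 with and 0.34 without the replicate block), or 2.05-fold lower. A second view used hormone-responsive features chosen on the TRβ1 pool, whose arrays do not enter the vehicle differences. The choice and the vehicle calls still share the residual variance of the fit over all 18 arrays. T3 raised 83 features in the TRβ1 pool (0.404% of the 20546) and lowered 15 (0.073%), together 0.477%. In TRα1 minus control on vehicle the 83 raised features had a median of 0.02, 46 lay above 0, 4 were called higher (FYN, SERPINB9, CYP3A5 and RFLNB) and 1 lower (CYP24A1). The 15 lowered features had a median of -0.09, 3 lay above 0, 2 were called lower (ANKRD1 and JAG1) and 1 higher (ICAM2). Of the corepressor and coactivator genes 1 of 13 was called, TBL1X, a subunit of corepressor complexes, at 0.41 ± 0.09.

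The same pools on T3 gave arrays that do not enter the vehicle differences, although they share the pools and the replicate numbers. They do enter the fit over all 18 arrays, and so the SE behind the vehicle calls. On those arrays 582 features were called (2.83%), 373 higher (1.82%) and 209 lower (1.02%). Of the 425 vehicle calls 418 had the same sign there (98.4%), where 65.4% of all features did. Called in the same direction on both were 287, which is 67.5% of the vehicle calls and 49.3% of the T3 calls. Both sets of calls rest on the same residual variance of each feature, so this overlap is not between separate fits. The features called higher on vehicle had a median of 0.56 there and 0.50 on T3, and those called lower -0.46 and -0.41. Across all 20546 features, which are not independent, Pearson's r between both differences was 0.585, as a description. The differences of SPINK1 and VCAN on T3 were 3.69 and 2.41, and that of PROM1 was -2.09.

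**Figure D3:**
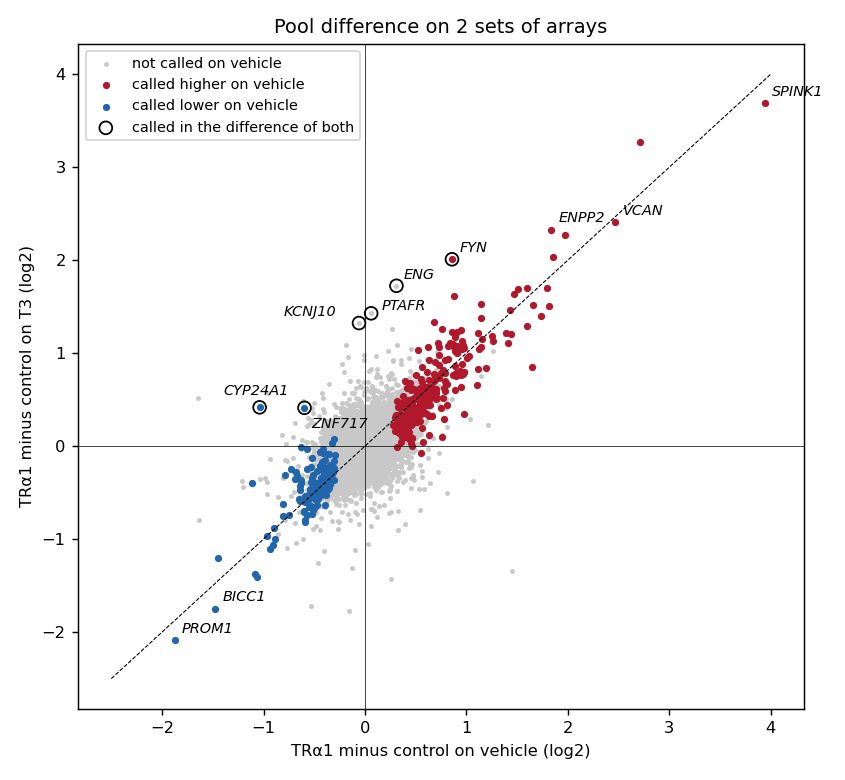
Difference between the TRα1 and control pools on vehicle (horizontal, log2) and on T3 (vertical, log2), 1 point per feature, with the dashed line marking equal values. Features called on vehicle are red (284 higher) or blue (141 lower), and 418 of these 425 keep their sign on T3. Circles mark the 6 features whose difference depended on hormone.

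The difference between pools depended on hormone for 6 features (0.0292%), all with a higher difference on T3. CYP24A1 went from -1.04 on vehicle to 0.42 on T3, a change of 1.46 with a 95% interval of 1.01 to 1.90 (adjusted p = 0.015, limma). On T3 it stood at 7.91, 7.51 and 7.06 in the TRα1 pool and at 7.42, 6.92 and 6.90 in control, so the groups overlapped there. ZNF717, a zinc finger protein, stood at 3.83, 3.66 and 4.06 against 4.32, 4.32 and 4.70 on vehicle, lower without overlap at -0.60 ± 0.08. The adjusted p of that difference was 0.36 without the replicate block (limma). On T3 ZNF717 was called higher at 0.41, where the groups overlapped. It was the 1 feature called in opposite directions, its levels were low, and its change was 1.01 (0.76 to 1.25, adjusted p = 0.0041). FYN, already higher on vehicle, differed by 2.01 on T3, a change of 1.15 (0.84 to 1.46, adjusted p = 0.0059). Without the replicate block 0 features passed for this change, with 286 at an unadjusted p under 0.05, and 0 passed when all arrays of 1 number were left out (624 to 879 at an unadjusted p under 0.05).

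The other 3 had no called difference on vehicle. PTAFR, the receptor of platelet-activating factor, differed by 0.06 ± 0.11 on vehicle and 1.43 on T3. KCNJ10, a potassium channel, differed by -0.06 ± 0.12 and 1.32. ENG, endoglin, a TGF-β coreceptor, differed by 0.31 ± 0.13 (adjusted p = 0.31) and 1.72. Its 3 TRα1 values on vehicle lay above all 3 of control. The T3 response of these 3 in the control pool was between -0.06 and 0.07, and between 1.35 and 1.45 in the TRα1 pool. Among genes called on T3 and not on vehicle were also F13B, a coagulation subunit (-1.26 on T3, -0.46 on vehicle), CYP7A1, the rate-limiting enzyme of bile acid synthesis (-1.10 and -0.77), and the protease CORIN (1.06 and 0.62). For these 3 a dependence on hormone was not called.

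**Figure D4:**
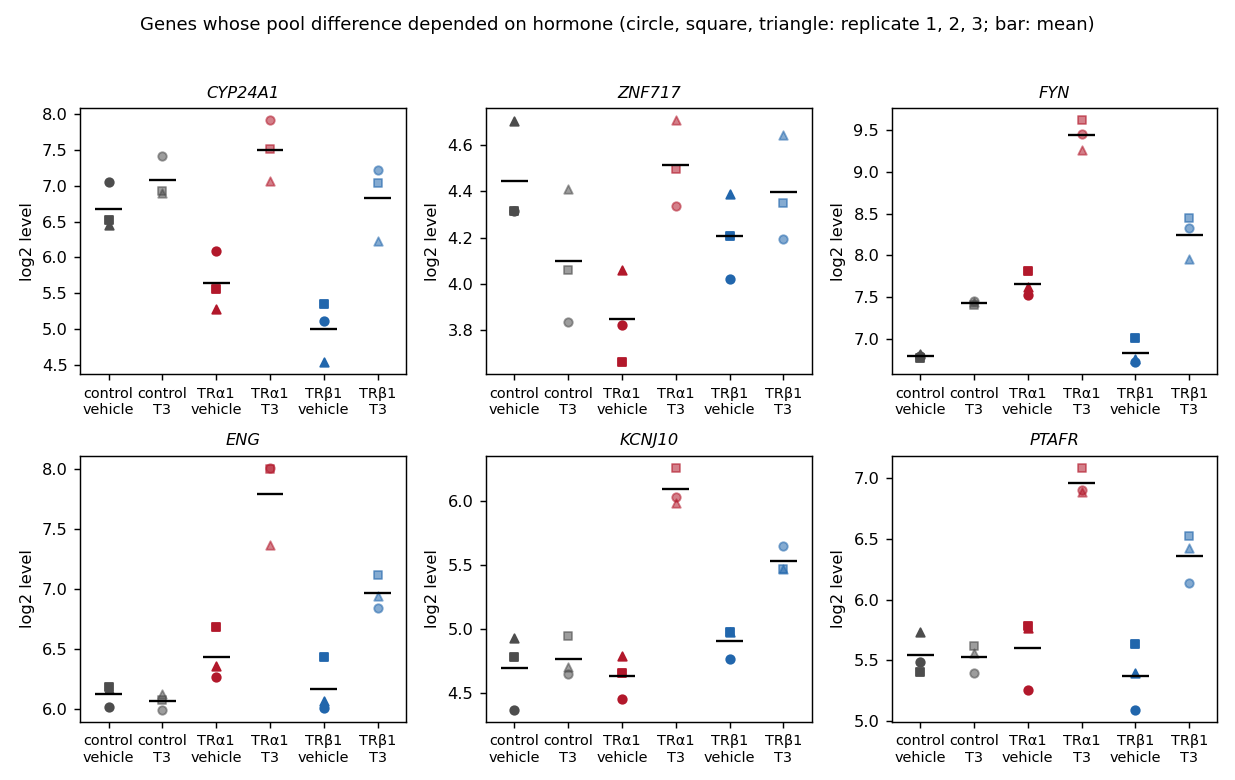
Log2 level on each of 18 arrays of the 6 genes whose pool difference depended on hormone. Groups are the control (grey), TRα1 (red) and TRβ1 (blue) pools on vehicle and on T3 (paler), with 3 arrays each and bars at the means. CYP24A1 and ZNF717 are lower in the TRα1 pool than in control on vehicle, and FYN is higher. The lower 3 panels show smaller differences from control on vehicle, where the ENG values do not overlap.

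Whether a difference marked the TRα1 pool or both receptor pools was read from TRα1 minus TRβ1 on vehicle, which shares the TRα1 arrays with the comparison. In that contrast 111 features were called (0.54%), and 0 without the replicate block, with 593 at an unadjusted p under 0.05. CLDN6 was 1.43 above the TRβ1 pool (adjusted p = 0.0028), ALDH8A1 1.27 above (adjusted p = 0.0019) and SLC2A2 1.20 above (adjusted p = 0.0012). PAQR9, a membrane protein of the progestin and adipoQ receptor family, was -1.19 from TRβ1 and -0.94 ± 0.10 from control. DOCK9 (-1.16), SERPING1 (0.99), SLC22A7 (0.98) and CYBRD1 (0.89) also passed. FYN was 0.82 above TRβ1 (adjusted p = 0.0019). For SPINK1 the difference from TRβ1 was 0.51 (adjusted p = 0.85). TRβ1 minus control uses the same control arrays, so its values stand beside the others without a test. They were 3.43 for SPINK1, 1.83 for VCAN, 1.31 for UGT2B4, -1.05 for PROM1 and -1.68 for CYP24A1. For CLDN6, FYN and SLC2A2 they were 0.17, 0.04 and -0.52, so the TRβ1 mean of SLC2A2 lay below that of control. The median of TRβ1 minus control was 0.30 over the 284 higher calls of the comparison and -0.24 over the 141 lower ones.

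Some of the lower calls lay in long runs of neighbouring genes. Genes were put in RefSeq order (GRCh38.p14) and cut into 356 windows of 50 genes, with a standard deviation of 0.04 between window medians. The stretches below were chosen after their values were seen and have no test. In the first 16 windows of chromosome 1, from LOC440570 to CDC7, every median was below 0 (-0.14 to -0.03). Of its 800 genes 590 lay below 0 (73.8%), 30 were called lower and 2 higher, where the other 21 windows of the chromosome had 4 lower and 12 higher of 1050. On chromosome 14, 2 windows from SALL2 to NFKBIA had medians of -0.18 and -0.16, with 87 of 100 genes below 0, 14 called lower and 0 higher. Both stretches held 44 of the 129 lower calls in windows (4.89% of their genes), while 85 of 16900 other genes were called lower (0.503%).

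The lower genes of these stretches have various known roles. On chromosome 1 they included the transcriptional repressor SPEN (-0.63), the ubiquitin ligase UBR4 (-0.61), the deacetylase HDAC1 (-0.54), the receptor kinase EPHA2 (-0.42), the kinase MTOR (-0.40) and NR0B2. On chromosome 14 they included the arginine methyltransferase PRMT5 (-0.44), the striatin STRN3 (-0.49), the importin IPO4 (-0.39), MMP14 and AJUBA. The T3 arrays gave medians below 0 in all 18 of these windows, with 38 called lower and 7 higher on chromosome 1 and 18 lower and 1 higher on chromosome 14.

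The pools that stood apart differed between both stretches. Averaged over the 800 genes of chromosome 1, relative to the array's mean over all ordered genes, the 6 control arrays stood at 0.40 to 0.48 and the 12 receptor arrays at 0.32 to 0.35. The control pool was thus the high one, on vehicle and T3, without overlap with either receptor pool. For the 100 genes of chromosome 14 the 6 TRα1 arrays stood at 0.30 to 0.45 and the 12 others at 0.48 to 0.61, so the TRα1 pool was the low one. TRα1 minus TRβ1 on vehicle had a median of 0.01 in the first stretch and -0.25 in the second, with 15 called lower (background 0.292%). The part of chromosome copy number or of clone origin in these values was not tested.

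**Figure D5:**
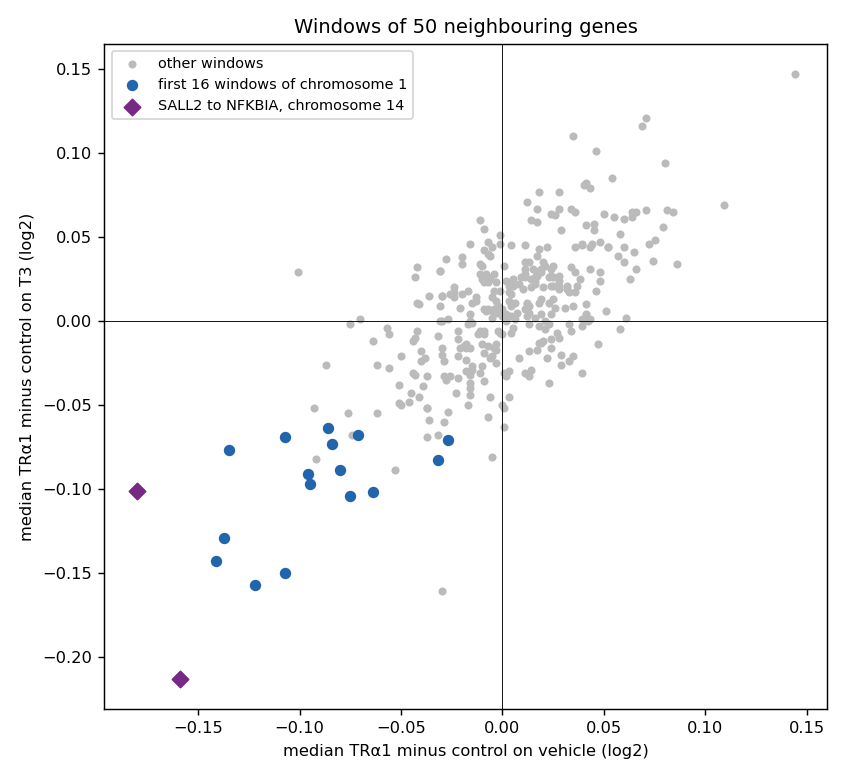
Median difference between the TRα1 and control pools in 356 windows of 50 neighbouring genes, on vehicle (horizontal, log2) and on T3 (vertical, log2). The first 16 windows of chromosome 1 (blue) and the 2 windows of chromosome 14 (diamonds) lie below 0 on both axes. The window at the upper right, FAM3B to KRTAP10-7 on chromosome 21, has medians of 0.14 and 0.15 and holds MX1 and MX2.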

How the data were processed

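RNA of the cultures was hybridised to Affymetrix Human Gene ST arrays after amplification of 200 ng of total RNA, per the labels. The authors deposited log2 values, 1 per transcript cluster and array, made by RMA. The submitters' processing notes name R 2.7.1. RMA equalises the distributions of the arrays, so a shift of all genes cannot be seen. No read depth exists for arrays, and 3 arrays per group limit the precision. Array medians lay between 5.31 and 5.49.

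Gene names came from GEO's platform annotation, updated by Entrez number to RefSeq symbols. Of 32321 features 20546 had a symbol, 19159 of them a single gene and 1387 several, and 11775 had none. The model (limma 3.58.1 in R 4.3.3, lmFit and eBayes) had 6 groups, the replicate number as a block and 1 residual variance per feature over 18 arrays. P-values are two-sided and Benjamini-Hochberg adjusted within a contrast. The median SE was 0.107, against 0.157 without the block. The block follows the pairing of arrays by the replicate number of their titles. Deviations from group means of all 45 same-numbered pairs of arrays correlated positively (0.259 to 0.816), and pairs with other numbers reached 0.455. The same code was tested on simulated data.

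Genes were named by rule: up to 20 higher and 20 lower genes by estimate among called single-gene features without overlap, THRA and THRB, up to 5 called members of each list (or 2 with the smallest p), genes called for the hormone dependence or on T3 alone (up to 6 each) and 8 that also differed from TRβ1. Not every gene that the rule named is reported here. A gene with several features was represented by the one with the highest mean. ZNRF3, ITGAV, SERPINB9, RFLNB, JAG1, ICAM2, SMPD1, APBB1, H2BC14, H3C7 and the genes of the chromosome stretches were outside the rule and chosen after their values were seen. The 41 lists held 1031 entries, of which 917 matched a feature. The comparison and the lists were chosen with earlier results of these data known. Alternatives covered the block, the arrays fitted, array weights, the variance prior, dim features, centring, features without a symbol and left-out arrays.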

Additional observations from a re-analysis of the deposited data

Results flagged for a closer look

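The difference between the TRα1 and control pools changed between vehicle and T3 by the test of that change itself in 6 genes. The change, T3 minus vehicle, was 1.46 for CYP24A1, 1.41 for ENG, 1.38 for KCNJ10, 1.37 for PTAFR, 1.15 for FYN and 1.01 for ZNF717 on the log2 scale. In the TRβ1 pool the T3 responses of the same 6 genes were 1.83, 0.79, 0.62, 0.99, 1.40 and 0.19. The last of these, for ZNF717, was not called (adjusted p = 0.72, limma).

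Features without a gene symbol, which no comparison above uses, also differed on vehicle: in a limma fit adjusted over all 32321 features, 24 of these 11775 passed (0.204%), 14 higher and 10 lower in the TRα1 pool. In that fit 260 of all features passed (0.804%).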

How the results depend on the processing

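The counts of calls moved with the block and the arrays. Without the replicate block the counts were 63 on vehicle, 89 on T3, 48 on both, 0 for the hormone dependence (286 at an unadjusted p under 0.05, limma), 0 against TRβ1 (593) and 15 for T3 in the TRβ1 pool. With only the 6 arrays compared they were 107 on vehicle, 168 on T3, 20 against TRβ1 and 1 for T3 in the TRβ1 pool, and with the 9 arrays of 1 treatment 183, 288 and 32 for the first 3 of these. Adding features without a symbol gave 260 on vehicle, 178 on both and 60 against TRβ1. Array weights gave 221 against TRβ1 and 164 for T3 in the TRβ1 pool, and an intensity trend with a robust prior gave 172 against TRβ1.

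Leaving out arrays singly or by number gave 63 to 299 on vehicle, 93 to 580 on T3, 44 to 264 on both, 0 to 9 for the hormone dependence, 1 to 86 against TRβ1 and 19 to 70 for T3 in the TRβ1 pool. The lowest of each came with all arrays of 1 number left out.

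Of 95 named called genes 60 lost their call without the block, 48 with 6 arrays, 35 with 9 arrays, 25 with features without a symbol added, 19 to 34 with 1 array left out, 6 with array weights, 5 with centred arrays and 32, 53 and 63 without replicate 1, 2 or 3. No named called gene changed sign under any alternative, but the design largely fixed this in advance. In every called feature all 3 same-numbered pairs already ran in 1 direction. Among uncalled genes, PTAFR ranged from -0.10 (without replicate 2) to 0.20 and KCNJ10 from -0.18 to 0.06 (without control replicate 3) as arrays were left out. The cause of these changes was not tested beyond the smaller number of arrays.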

Other observations

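Neighbouring called genes also occurred in short runs outside the stretches on chromosomes 1 and 14. There, 351 of 17482 genes in RefSeq order were called (2.01%), and 27 of the 351 (7.69%) stood directly beside another called in the same direction, in 13 runs. Higher runs included the interleukin receptors IL1R2 and IL1R1, the serpins SERPINA5 and SERPINA3, the carboxylesterase CES1 with its pseudogene CES1P1, and RCN1 with WT1. Lower runs included PCOLCE2 with PAQR9 and RBM24 with CAP2. CES1 and CES1P1 are near-identical in sequence, so their values are uncertain. Of 9 called genes with several features, 2 had features with opposite signs.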
